A study of Mus musculus with 18 samples.

Results

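The 9 genes described here encode transcription factors of the activator protein 1 (AP-1) group. They are Fos, Fosb, Fosl1 and Fosl2 of the Fos family, Jun, Junb and Jund of the Jun family, and Atf3 and Maff, whose proteins carry the same kind of dimerisation domain. They were chosen by gene family and on their measured changes with storage in these same libraries, and are 9 of the 34989 genes that the transcript table summed to. RNA was sequenced from the left ventricle (LV) and right ventricle (RV) of hearts of mice whose labels give the strain as C57B/L6 and the age as 12 weeks (C57BL/6J and a younger age in the study's methods), with 3 libraries for each ventricle and storage time. Every heart received the preservation solution HTK, was kept in ice-cold HTK for 0, 4 or 8 h, and was then perfused ex vivo with Krebs buffer for 1 h before the ventricles were frozen. The 0 h hearts were thus also flushed, excised and perfused, and no unperfused heart was among the libraries, so that the levels at 0 h are those of a perfused heart. The study used mice of both sexes, and the libraries' labels give no sex. In the study's methods a pressure balloon was placed during perfusion first in the RV and then in the LV of the same heart. Its part in the differences between the ventricles given below was not tested.

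AP-1 is a dimer of basic leucine zipper proteins. Fos proteins do not form stable pairs with each other and bind DNA mainly with a Jun partner, whereas Jun proteins can also pair among themselves. Fos, Fosb, Jun, Junb and Atf3 are classical immediate-early genes, whose transcription starts within minutes of a stimulus without new protein synthesis, through serum response factor, Creb and Jun proteins that are already in the cell. Their mRNAs are short-lived. In the heart the group is known for its induction by stretch, ischemia and reperfusion.

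The libraries held between 22552581 and 46236771 estimated counts, and each member other than Fosl1 had at least 540 counts in each library (Fosl1, 27 to 2668). Markers of cardiomyocytes were abundant in all 18 libraries, with a summed level of 5 genes between 21080 and 58972 CPM (counts scaled to TMM-adjusted library sizes). This sum was lower at 8 h, between 32197 and 41386 in the LV and between 21080 and 47981 in the RV, than at 0 h, where it was between 47754 and 58972 in the LV and between 48604 and 58045 in the RV. Summed markers of neutrophils (5 genes) went from 1.01 to 1.77 CPM at 0 h to 9.83 to 18.3 CPM at 8 h in the LV, and from 0.982 to 2.51 CPM to 12 to 16.6 CPM in the RV. Only 3 of these 5 genes in the LV and 1 in the RV had enough counts to be tested. Summed globin genes were between 2.4 and 6.14 CPM at 0 h and reached 194 CPM in the LV and 105 CPM in the RV after storage, while the 5 macrophage markers overlapped between storage times. In the LV the 8 h libraries lay above all 0 h libraries in summed fibroblast markers (537 to 747 against 449 to 510 CPM) and in those of smooth muscle and pericytes (781 to 898 against 647 to 746 CPM). Mitochondrial genes took 24.1% to 28.3% of counts at 0 h and 32% to 34.4% at 8 h in the LV, and 22.7% to 32.6% and 33.3% to 34.2% in the RV. The part of these shifts in the results below was not tested. RNA came from whole ventricle, in which fewer cells of a type and less RNA per cell cannot be told apart.

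Cyclic AMP response elements are among the DNA elements through which immediate-early genes are known to be switched on. Start regions are printed for the 6 members in which such an element was matched, to show how they differ. Sequences are the 150 bases before a RefSeq start site of assembly GRCm38.p6, written 5′ to 3′ on the gene's strand. Capitals mark the whole element (CRE) TGACGTCA, its core TGACG or CGTCA alone, or TGACATCA, the CRE-like element known from the Jun promoter.
Fos, chr12:85473740-85473889, plus strand: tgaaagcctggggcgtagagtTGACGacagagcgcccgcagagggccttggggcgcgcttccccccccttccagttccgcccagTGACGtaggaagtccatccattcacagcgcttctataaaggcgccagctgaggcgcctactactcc
Fosb, chr7:19310046-19310195, minus strand: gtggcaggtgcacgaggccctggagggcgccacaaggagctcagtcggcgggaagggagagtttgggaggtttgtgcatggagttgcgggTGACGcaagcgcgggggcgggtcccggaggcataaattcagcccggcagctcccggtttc
Jun, chr4:95052223-95052372, minus strand: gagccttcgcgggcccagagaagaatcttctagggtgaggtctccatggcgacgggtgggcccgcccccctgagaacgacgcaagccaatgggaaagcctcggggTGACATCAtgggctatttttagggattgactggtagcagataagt
Junb, chr8:84978749-84978898, minus strand: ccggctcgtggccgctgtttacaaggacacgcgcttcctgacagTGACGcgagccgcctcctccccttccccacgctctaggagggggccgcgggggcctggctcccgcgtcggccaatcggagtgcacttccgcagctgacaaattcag
Atf3, chr1:191183334-191183483, minus strand: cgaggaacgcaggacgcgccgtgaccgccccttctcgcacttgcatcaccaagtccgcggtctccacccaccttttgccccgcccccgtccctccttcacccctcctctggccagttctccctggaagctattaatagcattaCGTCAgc
Maff, chr15:79347370-79347519, plus strand: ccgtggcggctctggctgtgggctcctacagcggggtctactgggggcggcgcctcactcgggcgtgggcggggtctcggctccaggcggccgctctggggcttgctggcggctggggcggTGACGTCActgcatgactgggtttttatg
Counted from the base before the start as -1, the core began at -129 and -66 in Fos, at -60 in Fosb, at -106 in Junb and at -7 in Atf3. The element TGACATCA began at -45 in Jun, and the whole CRE at -29 in Maff. RefSeq start regions were found for 8 of the 9 members (10 start sites in all, 3 of them of Maff), and none for Fosl1. The regions searched reach further before the start than the 150 bases printed. On either strand, the CRE core (whole elements included) was in 6 of these 10 regions and in 20.8% of all 32851 RefSeq start regions. The whole CRE was in 1 of 10 (1.79% of all), TGACATCA in 2 of 10 (3.62%), the AP-1 site TGACTCA in 0 of 10 (5.2%), and the CArG box bound by serum response factor in 0 of 10 (1.63%). These are matches of letters in a short window, and binding was not measured. Elements further before the start, the CArG box among them, were not searched for, so a count of 0 does not show that a gene lacks them. The windows of Fosl2 and Jund held none of these letters, but their RefSeq start sites are not those of the main measured transcripts. The site of Jund lies 1210 bases before the first base of Jund-201 and that of Fosl2 lies 671 bases after that of Fosl2-201, so that the bases before these transcripts were not searched.

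The levels of the members relative to each other were compared in TPM, which is scaled within a library and takes transcript length into account. Junb ranged from 124.7 to 667 TPM and ranked between 1 and 3 among the 9 members of every library. Fos ranged from 94.7 to 849.8 TPM and ranked between 1 and 4, and Atf3 ranged from 77.4 to 694.5 TPM and ranked between 1 and 5. Fosb (80.3 to 520.1 TPM) and Jun (106 to 387 TPM) ranked between 3 and 6, so that their order among themselves depended on the library. Jund (75.4 to 222 TPM) ranked 5 or 6. Maff (10.7 to 155 TPM) and Fosl2 (14.1 to 81.1 TPM) shared ranks 7 and 8. Fosl1 was the least abundant member in all 18 libraries, at 0.611 to 45.6 TPM.

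In the RV, the level of every member was higher after storage than at 0 h. A gene was called when its fold change exceeded 1.5 with a Benjamini-Hochberg adjusted p under 0.1 over all genes in edgeR's quasi-likelihood test. All 9 members were called higher at 4 h, where 6.17% of the 14622 tested genes were called higher, and all 9 at 8 h, where 13% were. The median log2 fold change of the 9 members was 1.79 at 4 h and 2.37 at 8 h, against 0.0034 and -0.072 over all tested genes. For each member the 3 libraries at 4 h and the 3 at 8 h lay above all 3 at 0 h, as they did for 15.1% and 18.5% of tested genes. The members were chosen with these comparisons known, so that these counts and changes are a description.

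Fos (ENSMUSG00000021250.13, chr12:85473890-85477273, plus strand of GRCm38), the founding member and a partner of Jun proteins, had 207, 129.6 and 194 CPM in RV replicates 1, 2 and 3 at 0 h. It had 742, 637 and 444 CPM at 4 h and 793, 844 and 1068 CPM at 8 h. All 3 libraries at 8 h exceeded the highest at 4 h, and the log2 fold change from 0 h was 1.79 ± 0.27 (standard error) at 4 h and 2.37 ± 0.28 at 8 h. Fosb (ENSMUSG00000003545.3; chr7:19302696-19310051, minus strand), its closest relative, had 205, 188 and 272 CPM at 0 h, 971, 911 and 1127 CPM at 4 h and 947, 1374 and 1869 CPM at 8 h. Its log2 fold changes were 2.20 ± 0.29 and 2.68 ± 0.30, and the 4 h and 8 h libraries overlapped.

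Fosl1 (ENSMUSG00000024912.6; chr19:5447547-5455946, plus strand), which encodes Fra-1, a Fos protein that lacks a strong activation domain, was low at 0 h with 6.29, 1.29 and 0.882 CPM. It reached 64.9, 33.1 and 12.7 CPM at 4 h and 58.2, 26.4 and 49.3 CPM at 8 h. Its log2 fold changes of 3.71 ± 0.81 and 3.98 ± 0.82 were the largest of the 9 members and had the largest standard errors. Replicate 1 was the highest library at each storage time. Fosl2 (ENSMUSG00000029135.10; chr5:32135801-32157842, plus strand), which encodes Fra-2, had 146, 106 and 77.1 CPM at 0 h, 432, 291 and 259 CPM at 4 h and 478, 356 and 541 CPM at 8 h, with log2 fold changes of 1.59 ± 0.30 and 2.08 ± 0.31.

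Among the Jun genes, Jun (ENSMUSG00000052684.4, chr4:95049034-95052222, minus strand) encodes a partner of Fos and the strongest activator of its family. It had 419, 275 and 302 CPM at 0 h, 705, 592 and 484 CPM at 4 h and 767, 961 and 1183 CPM at 8 h. The 3 storage times did not overlap, and the log2 fold change was 0.85 ± 0.26 at 4 h and 1.57 ± 0.26 at 8 h. Junb (ENSMUSG00000052837.6; chr8:84974484-84978718, minus strand), which can oppose Jun at some promoters, had 469, 198 and 192 CPM at 0 h. Replicate 1 stood well above the other two. Junb then had 1014, 586 and 562 CPM at 4 h and 946, 932 and 1126 CPM at 8 h, with log2 fold changes of 1.34 ± 0.38 and 1.82 ± 0.39. Jund (ENSMUSG00000071076.6; chr8:70698949-70700616, plus strand), the Jun gene usually expressed without a stimulus, had 143, 100.3 and 106 CPM at 0 h, 308, 234 and 241 CPM at 4 h and 249.2, 248.8 and 279 CPM at 8 h. It had the smallest change of the 9 members at 8 h, 1.17 ± 0.20, and the same change at 4 h within its error, 1.18 ± 0.20.

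Atf3 (ENSMUSG00000026628.13; chr1:191170296-191218039, minus strand), a stress-induced factor that acts mostly as a repressor when paired with itself, had 330.1, 158 and 132 CPM at 0 h, 1157, 772 and 963 CPM at 4 h and 929, 899 and 1386 CPM at 8 h. Its log2 fold changes were 2.24 ± 0.38 and 2.39 ± 0.38. Maff (ENSMUSG00000042622.14; chr15:79346621-79359076, plus strand), a small Maf protein that has no activation domain and works as a partner of other leucine zipper proteins, had 76.1, 22.6 and 17.6 CPM at 0 h, 254, 150.3 and 130.1 CPM at 4 h and 215, 183 and 225 CPM at 8 h. Its log2 fold changes were 2.21 ± 0.52 and 2.43 ± 0.53. As with Junb, replicate 1 held the highest level at 0 h.

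**Figure D1:**
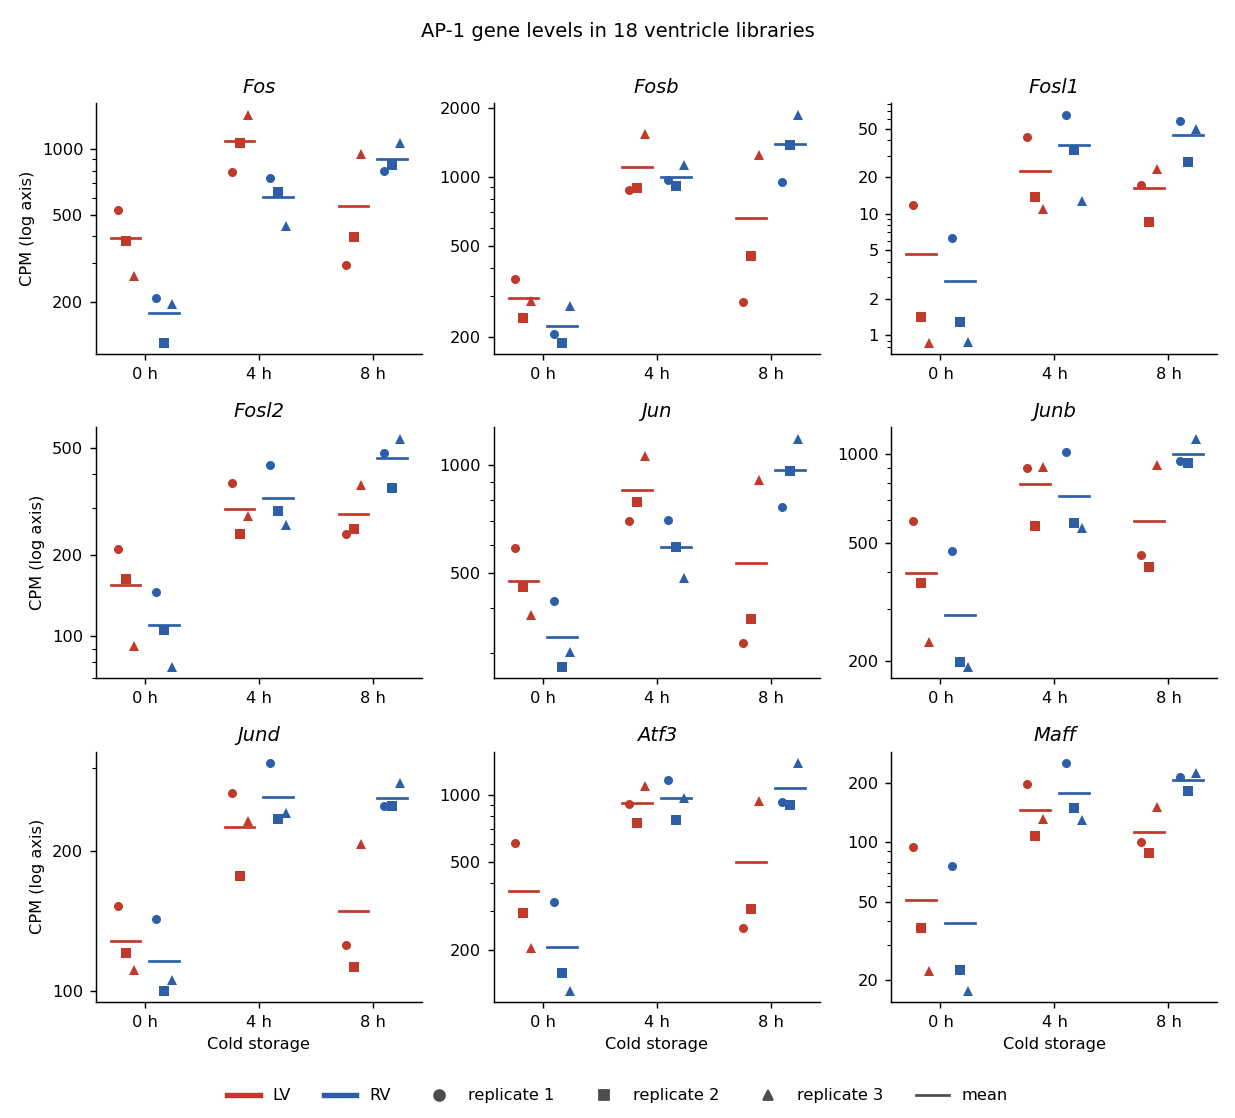
CPM (log axis, different for each gene) of the 9 members in each of the 18 libraries by cold storage time, LV in red and RV in blue, with marker shapes for replicate numbers and bars for group means (n = 3). In the RV all libraries at 4 h and 8 h lie above those at 0 h, and in the LV at 8 h replicate 3 lies above the other two for each of the 9 genes.

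The RV counts differed in how far they rested on single libraries. At 8 h all 9 members stayed called whichever of the 9 RV libraries was left out. At 4 h the count was 4 without RV 0 h replicate 2, 5 without RV 0 h replicate 3, and between 6 and 9 without any 1 of the others. Replicate 1 was the highest RV library at 0 h for 8 of the 9 members and at 4 h for 8 of 9, and replicate 3 at 8 h for 8 of 9.

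In the LV the members had positive changes at both storage times, and none was called. At 4 h 0 of 9 were called higher (2.4% of 14564 tested genes were) and at 8 h 0 of 9 (5.46%). The median log2 fold change of the members was 1.31 at 4 h and 0.588 at 8 h, against -0.0044 and -0.017 over all tested genes. At an unadjusted p under 0.05 the numbers were 8 and 3 of 9 (15.6% and 23.3% of all tested genes, in either direction), and DESeq2 called 5 and 2 higher (4.55% and 7.84%). The 4 h libraries lay above all 0 h libraries for 7 members, the exceptions being Fosl1 and Junb (12.9% of tested genes), and the 8 h libraries for Fosl2 alone (15.5%).

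Fos had 529.6, 380.2 and 263 CPM in LV replicates 1, 2 and 3 at 0 h, 785, 1066 and 1443 CPM at 4 h, and 294, 396 and 956 CPM at 8 h. The 4 h libraries were the highest, apart from replicate 3 at 8 h, and replicates 1 and 2 at 8 h lay within the range of the 0 h libraries. The log2 fold change of Fos was 1.49 ± 0.45 at 4 h and 0.49 ± 0.44 at 8 h. Fosb went from 357, 241 and 288 CPM to 872, 896 and 1539 CPM at 4 h and 282, 450.2 and 1245 CPM at 8 h, with log2 fold changes of 1.90 ± 0.50 and 1.16 ± 0.49. Fosl1 had 11.8, 1.42 and 0.871 CPM at 0 h, 42.97, 13.8 and 10.9 CPM at 4 h and 17.1, 8.51 and 23.4 CPM at 8 h. LV 0 h replicate 1 alone exceeded the lowest stored library. Fosl2 had 211, 163 and 92.2 CPM at 0 h, 369.6, 239 and 279.8 CPM at 4 h and 240.1, 249.8 and 364 CPM at 8 h, and was the member whose change differed least between the storage times, 0.93 ± 0.30 and 0.88 ± 0.30.

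Jun had 588, 457 and 384 CPM in the LV at 0 h, 699, 789.8 and 1063 CPM at 4 h and 320.4, 374 and 907 CPM at 8 h. At 8 h replicates 1 and 2 were below every 0 h library, replicate 3 was above every 0 h library, and the log2 fold change was 0.17 ± 0.37. Atf3 had 608, 295 and 204 CPM at 0 h, 903, 743 and 1096 CPM at 4 h and 253, 307 and 939 CPM at 8 h. Here too replicate 3 at 8 h was above every 0 h library, while replicates 1 and 2 lay within the range of the 0 h libraries. Its log2 fold change was 1.31 ± 0.54 at 4 h and 0.44 ± 0.53 at 8 h. Junb had 594, 369 and 232 CPM at 0 h, 895, 572 and 907 CPM at 4 h and 458, 417 and 916 CPM at 8 h, and the times overlapped. Jund had 152, 121 and 111 CPM at 0 h, 266, 177 and 231 CPM at 4 h and 126, 113 and 206 CPM at 8 h. Maff had 94.9, 36.7 and 22.1 CPM at 0 h, 198, 108 and 131 CPM at 4 h and 101, 87.99 and 151 CPM at 8 h, and its replicate 1 at 0 h exceeded the lowest library at 8 h. For Junb, Jund and Maff the log2 fold changes were 0.99, 0.81 and 1.51 at 4 h and 0.59, 0.22 and 1.15 at 8 h.

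**Figure D2:**
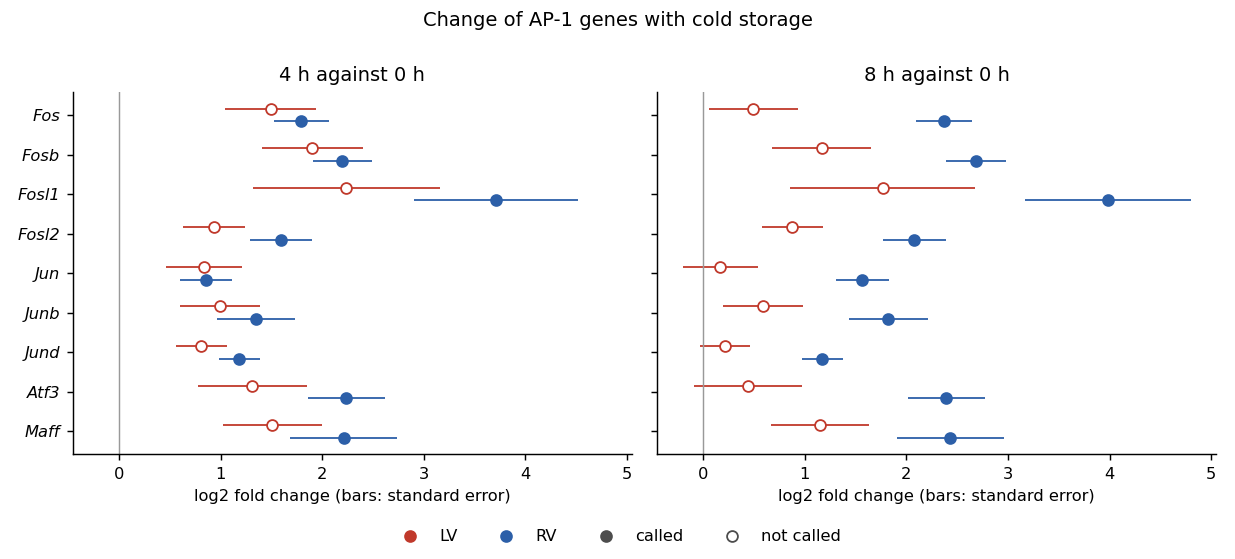
Log2 fold change from 0 h (x axis, with standard errors) of each member at 4 h and 8 h, LV in red and RV in blue, filled where called. All 18 RV values are filled and all 18 LV values are open, and at 8 h each LV value lies left of the RV value of the same gene.

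Single libraries stood apart in the LV. LV 0 h replicate 1 was the highest of its group for 9 of 9 members, and LV 8 h replicate 3 for 9 of 9. Without LV 8 h replicate 3, 5 members were called higher at 4 h, and without LV 0 h replicate 1, 2 at 4 h and 2 at 8 h. Without LV 8 h replicate 1, 1 was called at 4 h. The change of Atf3 at 8 h ran from -0.41 to 1.00 and that of Fos from -0.19 to 0.79 over the 9 fits that each left out 1 LV library. Without LV 8 h replicate 3 the changes at 8 h were -0.19 for Fos, -0.47 for Jun, -0.11 for Jund and -0.41 for Atf3, and no other library turned the direction of a member at 8 h.

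Between 4 h and 8 h the differences of the members had opposite signs in the LV and RV. All 9 had lower values at 8 h than at 4 h in the LV (median log2 difference -0.60), and 8 of 9 had higher values in the RV (median 0.476, with Jund at -0.01). None was called in either ventricle, nor was any of all tested genes (0% in both), although 1180 genes in the LV and 961 in the RV had an unadjusted p under 0.05 and DESeq2 called 71 and 43. In the RV the 8 h libraries lay above all 4 h libraries for Fos and Jun, 2 of 9 members, as they did for 6% of genes. The largest differences were those of Fos in the LV, -0.998 ± 0.44, and of Jun in the RV, 0.71 ± 0.26. Over the 9 members and 3 replicate numbers, 22 of 27 values in the LV and 7 of 27 in the RV were lower at 8 h than at 4 h in the library of the same number. Those 27 values come from 3 pairs of libraries, each pair of different hearts, and are not independent.

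The libraries of the 2 ventricles with the same number and storage time were taken as those of 1 heart. At 0 h, 26 of 27 values of the members were higher in the LV than in the RV of that heart, all but Fosl1 in replicate 3. At 4 h 17 of 27 were lower in the LV, and at 8 h 27 of 27 were. The log2 ratio of LV to RV for Fos was 1.35, 1.55 and 0.44 in hearts 1, 2 and 3 at 0 h, 0.08, 0.74 and 1.70 at 4 h, and -1.43, -1.09 and -0.16 at 8 h. For Atf3 it was 0.88, 0.90 and 0.63 at 0 h, -0.36, -0.06 and 0.19 at 4 h, and -1.88, -1.55 and -0.56 at 8 h. For Junb it was 0.34, 0.90 and 0.28 at 0 h, -0.18, -0.03 and 0.69 at 4 h, and -1.05, -1.16 and -0.30 at 8 h. At 8 h heart 3, whose LV had the highest levels, had the ratio nearest to 0 for 8 of 9 members, the exception being Fosl2.

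**Figure D3:**
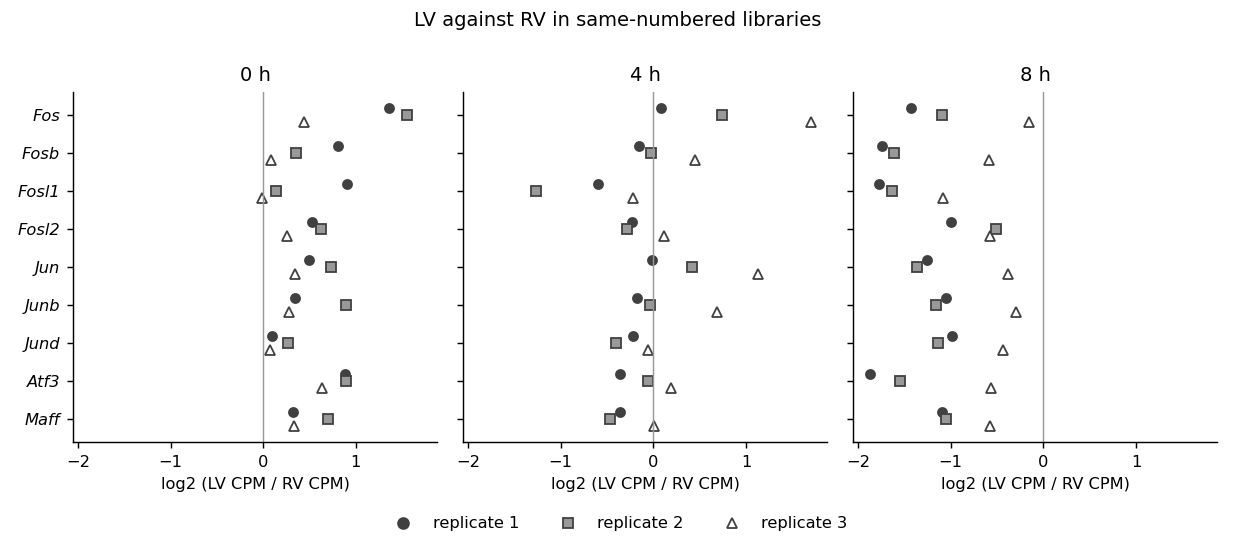
Log2 ratio of LV to RV CPM (x axis) of each member in the 3 hearts of each storage time, with marker shapes for replicate numbers. At 0 h 26 of the 27 points lie right of 0, at 4 h the points lie on both sides, and at 8 h all 27 lie left of 0.

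In the model of all 18 libraries without hearts as a block, no member was called between LV and RV at 0 h, 4 h or 8 h, where 0.159%, 0.0133% and 0.0331% of 15093 genes were called. At an unadjusted p under 0.05 there were 1, 1 and 5 members (3.21%, 2.96% and 11.1% of genes), and DESeq2 called 0, 0 and 1, the last lower in the LV, as were 1.04% of genes. With hearts as a block, Fos and Atf3 were called higher in the LV at 0 h (0.835% of genes), Fosl1 lower at 4 h (1.09%), and all 9 lower at 8 h (6.53%). The blocked log2 difference at 8 h was -0.90 ± 0.31 for Fos, -1.003 ± 0.22 for Jun, -1.33 ± 0.20 for Atf3 and -0.69 ± 0.12 for Fosl2. The LV and RV libraries at 8 h did not overlap for Fosl1, Junb, Jund and Maff, against 5.94% of genes in this direction. The change from 0 h to 8 h was smaller in the LV than in the RV for all 9 members, with a median difference of -1.38 on the log2 scale without the block, where none was called (0% of genes; 6 members and 628 genes at an unadjusted p under 0.05, 0 members and 2 genes by DESeq2), and -1.53 with it, where all 9 were called (4.72% of genes). For the change from 0 h to 4 h the median difference was -0.357 without the block and -0.37 with it, and 0 members were called in either fit (0% and 0.265% of genes; 0 members at an unadjusted p under 0.05 and 0 by DESeq2, without the block). Leaving out LV 8 h replicate 3 brought the unblocked count at 8 h from 0 to 5.

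The proteins that pair or compete with Fos and Jun formed a list of 15 genes, of which 14 were tested. In the LV 2 rose at 4 h and 5 at 8 h, and in the RV 5 rose at 4 h and 8 at 8 h, and none fell. For this and the lists below, the share of all tested genes called higher was 2.4% and 5.46% in the LV and 6.17% and 13% in the RV. Batf2 and Batf, leucine zipper factors best known from immune cells, had the largest changes of the list. The mean of Batf was 0.932 ± 0.359 CPM (SD of 3 libraries) at 0 h and 6.32 ± 0.515 CPM at 8 h in the LV, where it rose (log2 fold change 2.73 ± 0.26, edgeR adjusted p = 0.00284) and 0.822 ± 0.159 and 11.01 ± 3.15 CPM in the RV (3.75 ± 0.29, adjusted p = 0.000543). Batf2 rose by 4.65 ± 1.04 on the log2 scale in the LV (adjusted p = 0.0471) and by 4.84 ± 1.04 in the RV (adjusted p = 0.0173), with widely differing libraries at 8 h (4.64 to 29.2 CPM and 6.31 to 43.4 CPM). Batf3 rose by 1.62 ± 0.43 and 2.35 ± 0.46 (adjusted p = 0.0749 and 0.0123). Jdp2, a repressor that pairs with Jun, rose by 1.40 ± 0.30 in the LV and 1.68 ± 0.34 in the RV (adjusted p = 0.0405 and 0.0139). Nfe2 was not tested, with at most 0.185 CPM in any library.

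Genes known as targets of AP-1 rose in both ventricles. Of 22 tested, 10 rose at 4 h and 13 at 8 h in the LV, and 15 and 16 in the RV, and none fell. Their median log2 fold change at 8 h was 1.67 in the LV and 2.35 in the RV, and the sum of neutrophil markers given above was also higher in both. Il6, an inflammatory cytokine, rose from 10.7 ± 6.82 to 202 ± 53.1 CPM in the LV (4.24 ± 0.51, edgeR adjusted p = 0.00614) and from 6.23 ± 1.84 to 318 ± 63.1 CPM in the RV (5.68 ± 0.45, adjusted p = 0.000543). Timp1, an inhibitor of matrix metalloproteinases, rose by 3.79 ± 0.47 in the LV and 4.73 ± 0.50 in the RV (adjusted p = 0.00685 and 0.00129). Lif, a cytokine of the Il6 family, rose by 3.20 ± 0.56 and 4.63 ± 0.51 (adjusted p = 0.0234 and 0.00139). Mt2, a metallothionein, rose in the LV by 3.15 ± 0.58 (adjusted p = 0.0278), and Mmp13, a collagenase, in the RV by 4.35 ± 0.35 (adjusted p = 0.000543). Mmp10 was not tested, with at most 0.0479 CPM in any library. These genes answer to other factors too, AP-1 binding was not measured, and the cause of their rise was not tested.

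The list of 12 attenuators holds phosphatases of mitogen-activated protein (MAP) kinases, proteins that destabilise AU-rich mRNAs, and ubiquitin ligases of Jun. In the LV 2 rose at 4 h (Dusp6 and Dusp10) and 1 at 8 h (Dusp2), in the RV 3 rose at 4 h and 7 at 8 h, and none fell. With replicate numbers as a block, 7 were called higher in the RV at 4 h (8.45% of all tested genes), as with DESeq2 (8.12%), the added genes being Zfp36, Zfp36l1, Dusp1 and Dusp2 in both. Dusp6, a phosphatase of Erk kinases, had 26.8 ± 7.15 CPM at 0 h, 76.6 ± 7.14 CPM at 4 h and 36.3 ± 8.25 CPM at 8 h in the LV, where it rose at 4 h (1.52 ± 0.22, edgeR adjusted p = 0.0262) and was not called at 8 h (0.44 ± 0.22, adjusted p = 0.263). In the RV Dusp6 rose at 8 h by 2.28 ± 0.42, Dusp2 by 2.34 ± 0.54 and Dusp5 by 2.15 ± 0.31 (adjusted p = 0.00931, 0.0228 and 0.00375). Zfp36, which binds AU-rich elements of short-lived mRNAs, rose in the RV at 8 h by 1.62 ± 0.39 (adjusted p = 0.0267) and had 0.37 ± 0.39 in the LV (adjusted p = 0.576).

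Of 16 other immediate-early genes, 1 rose at 4 h (Myc) and none at 8 h in the LV, where Egr3 fell. DESeq2 called 3 higher at 4 h (Myc, Ccn2 and Arc), and at 8 h 1 higher (Myc) and 3 lower (Egr3, Nr4a1 and Nr4a2), as were 2.3% of all genes. In the RV 12 rose at 4 h and 13 at 8 h, and none fell. Their median log2 fold change at 8 h was 0.0492 in the LV and 1.53 in the RV. Myc, a growth-related transcription factor, rose in the RV at 8 h by 2.87 ± 0.33, Arc by 2.36 ± 0.53, Ier5 by 2.01 ± 0.35 and Klf4 by 1.94 ± 0.33 (edgeR adjusted p = 0.00165, 0.0202, 0.00809 and 0.007). Egr3, a zinc finger factor, had 117 ± 47.1 CPM at 0 h and 39.1 ± 12.2 CPM at 8 h in the LV (-1.58 ± 0.39, adjusted p = 0.0601), and 0.25 ± 0.47 in the RV (adjusted p = 0.723). Whether the lists differed between the ventricles was not tested.

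The last list holds kinases and factors upstream of AP-1, which act mainly through phosphorylation. Of 25 tested, 2 rose at 4 h (Map2k3 and Srf) and 1 fell at 8 h (Map2k7) in the LV, and 2 rose and 2 fell at each storage time in the RV. The share of all tested genes called lower was 1.26% in the LV at 8 h, and 3.91% at 4 h and 5.26% at 8 h in the RV. Map2k7, which activates Jun kinases, fell in both ventricles at 8 h, with log2 fold changes of -0.63 ± 0.14 in the LV and -0.80 ± 0.22 in the RV (edgeR adjusted p = 0.0471 and 0.0419). Mapk3, which encodes Erk1, fell in the RV (-0.68 ± 0.22, adjusted p = 0.0763). Map2k3, which activates p38 kinases, and Creb1, which binds the CRE, rose in the RV by 1.03 ± 0.23 and 0.90 ± 0.20 (adjusted p = 0.0185 and 0.0195). The median log2 fold changes at 8 h in the LV and the RV were -0.117 and -0.171 over this list, 0.33 and 0.944 over the partners, and 0.137 and 1.26 over the attenuators, against -0.0173 and -0.0719 over all genes tested. Over the 5 lists, 17 of 89 tested genes rose at 4 h and 19 at 8 h in the LV, and 37 and 46 in the RV. Without LV 0 h replicate 2 the LV counts were 1 and 6, without LV 0 h replicate 3 they were 4 and 8, and without LV 8 h replicate 3 they were 27 and 11. The 4 h count in the LV was 7 without LV 4 h replicate 1 and 8 without LV 4 h replicate 3. In the RV the 4 h count was 16 without RV 0 h replicate 2, 18 without RV 0 h replicate 3 and 22 without RV 4 h replicate 1, and the 8 h count stayed between 35 and 48.

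**Figure D4:**
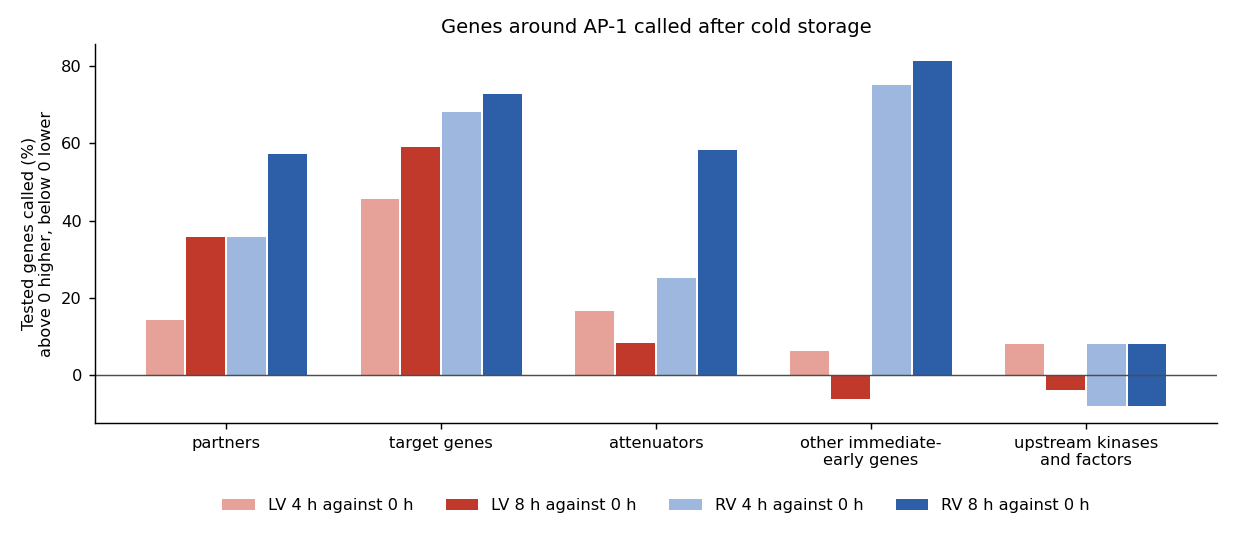
Percentage of the tested genes of each of the 5 lists called higher (bars above 0) or lower (bars below 0) than at 0 h, for LV (red shades) and RV (blue shades) at 4 h and 8 h. Target genes have high bars in all 4 comparisons, while for other immediate-early genes 13 of 16 were called higher in the RV at 8 h and 0 of 16 in the LV.

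The genes whose profile over the 18 libraries was most like that of each member were found by the root-mean-square difference of log2 CPM after centring each gene. This was done among 15093 genes, and the libraries share storage time and heart. Nearest to Junb were Ier2 (0.178), Ier5 (0.19) and Zfp36 (0.192), and nearest to Jun were Dusp1 (0.249), Zfp36 (0.271) and Itprip (0.292). Jund was nearest to Gadd45a, Pnrc1 and Sde2, and Fosl2 to Odc1, Pde4b and Kdm6b. Atf3 was nearest to Dusp5 and Arid5a, and Maff to Zc3h12a, Cxcl1 and Gadd45b. Fos was nearest to Adamts1 (0.432), Rasd1 and Egr2, and Fosb to Tent5c, Rasd1 and Fzd5. Fosl1 had the most distant neighbours, Plaur (0.45), Vgf (0.564) and Tnfaip6 (0.636).

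Some of the members share features of their transcripts. Jun, Junb and Jund have a single exon, as do 2.77% of the tested genes with a measured coding transcript in the GENCODE M21 annotation, where the median is 8 exons. The shares below are over the 13320 of these genes with a 3′ untranslated region of 100 bases or more. The pentamer ATTTA, the core of AU-rich elements that shorten the life of an mRNA, was denser in the 3′ untranslated region than their median (1.33 per 1000 bases) in 8 of the 9 members. It reached 4.91 in Fos and 4.12 in Junb, and was 0.466 in Fosb, the exception. In Fosl1 (1.57), Fosl2 (1.72) and Jund (1.88) it was only a little above the median. The longer form TTATTTATT was present in Fos, Fosl2 and Maff, 3 of 9 members, against 7.72% of the 13320 genes.

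Reads were shared among the annotated transcripts of a gene by estimation, so that shares of transcripts that overlap are uncertain. The main transcript, Fosb-201, which codes for 338 residues, took between 75.9% and 86.7% of the Fosb counts in all 18 libraries, and Fosb-206, whose coding frame of 237 residues is shortened, between 2.52% and 6.98%. Fosb-207, with 201 residues, took between 2.83% and 17.0%, and its highest shares were 17.0% in RV 8 h replicate 3, 14.1% in RV 4 h replicate 3 and 11.5% in LV 8 h replicate 3. Maff has 2 transcripts in the files with the same coding length (156 residues) and different start sites. Maff-201, which starts at the site printed above with the whole CRE, took 59.6% to 90% of the Maff counts at 0 h and 88.3% to 96.2% after storage. Maff-202, which starts downstream of it, had 2.94 to 7.15 TPM at 0 h and 3.08 to 9.07 TPM after storage, whereas Maff-201 went from 6.34 to 59.6 TPM at 0 h to 44.7 to 148 TPM. In the RV the highest 0 h library had 51.7 TPM of Maff-201 and the lowest stored library 77 TPM, while in the LV the highest 0 h library (59.6 TPM) lay within the range at 8 h (44.7 to 74.1 TPM). Maff-202 overlapped between 0 h and each storage time in both ventricles.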

How the data were processed

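RNA of LV and RV from 18 libraries (3 per ventricle and storage time, replicate numbers from the labels) had been made with a directional kit. Estimated counts per transcript (expected counts) were deposited by the authors from Kallisto pseudoalignment to GRCm38 transcripts with default parameters, without normalization between libraries. TPM values were deposited by the authors beside them, scaled within each library. Kallisto's default does not use strand, so that reads of a gene and an antisense partner cannot be told apart, and reads shared by paralogs had been divided.

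Counts were summed to genes of GENCODE M21 (leaving out the 1259 of 111462 transcripts without a match, at most 0.383% of counts) and rounded. After filterByExpr and TMM normalization, they were tested with edgeR 4.0.16 (glmQLFit, glmQLFTest) in R 4.3.3. A call needed a fold change over 1.5 and, after Benjamini-Hochberg adjustment, a p under 0.1, thresholds that the study had used with DESeq2. Storage times were compared over the 9 libraries of a ventricle, and ventricles and the differences of their changes over all 18. The scripts were tested on simulated data. The members, lists and tests were chosen with earlier results of these data known, and no p is given for a member. All 9 members were named, with up to 4 genes called at 8 h per list, ventricle and direction (largest change), any listed gene near 0, and the 3 most alike genes of each member, apart from a gene that is not reported here. Dusp6 at 4 h and the genes named beside counts of 5 or fewer were named after their values were seen.

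Nothing in the labels says that replicates came from separate mice in each group, and the tests measure the spread between these libraries. According to the study's methods each heart gave both ventricles. The deviations of same-numbered LV and RV libraries from their group means correlated between 0.284 and 0.668 across genes. Numbers were therefore taken to name hearts within a storage time. The correlations alone cannot show this, because same-numbered libraries of different storage times, and so of different hearts, were also correlated (values below). Each heart had 1 storage time, so that a number shared between storage times does not name 1 animal. In the RV, Ddx3y, a gene of the Y chromosome, was at 0.787 TPM in 0 h replicate 2 and 28.9 TPM in 4 h replicate 2. Between storage times the correlations were 0.107 to 0.461 in the RV and 0.322 to 0.535 between 4 h and 8 h in the LV. They were -0.0155 to 0.25 between 0 h and stored LV libraries. The replicate block within a ventricle still took equal numbers as linked across all its storage times. Alternatives were DESeq2 1.42.0, RLE size factors, length offsets, no filter, a fold over 2, all 18 libraries in 1 model, the replicate block, and each library left out. The difference of the change from 4 h to 8 h and the leaving out of whole hearts were added after seeing the data. Depth limits mainly Fosl1, whose 0 h libraries held few counts. Motifs were searched in RefSeq start regions of GRCm38.p6.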

Additional observations from a re-analysis of the deposited data

Results flagged for a closer look

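The difference between LV and RV in the change from 0 h to 8 h was called for each of the 9 members when hearts were treated as a block, which is why they stand here. On the log2 scale, LV minus RV, it was -2.01 for Fos, -1.73 for Fosb, -2.10 for Fosl1, -1.16 for Fosl2, -1.53 for Jun, -1.34 for Junb, -0.998 for Jund, -2.14 for Atf3 and -1.35 for Maff. Without the block none of the 9 was called. With the block and both ventricles of 1 heart left out in turn, between 8 and 9 members were called. As the members were chosen with results of these libraries known, these values are a description.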

How the results depend on the processing

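No value of a called member changed direction under any alternative. Of 2916 recomputed changes of single members, 2618 kept their direction and call, 41 that were not called either way changed direction, 238 gained a call and 19 lost it. Of the 41, 26 were between ventricles, 11 between 4 h and 8 h, and 4 were those without LV 8 h replicate 3. RV counts of 9 members at 4 h and 8 h were the same with the replicate block, DESeq2, RLE size factors, length offsets, no filter, no fold minimum and mitochondrial genes left out, and 8 and 9 with a fold over 2 or all 18 libraries in 1 model.

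In the LV, members called higher numbered 0 at 4 h and 0 at 8 h. With the replicate block they were 1 and 2 (3.86% and 8.1% of all tested genes), with DESeq2 5 and 2 (4.55% and 7.84%), with no filter 1 at 4 h, and with all 18 libraries in 1 model 3 at 4 h. Libraries of different storage times with the same number came from different hearts. In the LV, of 6 libraries, 4 at 0 h and 4 h, 2 at 0 h and 8 h and 6 at 4 h and 8 h correlated best with their own number. In the RV it was 6 of 6 for each pair of storage times. What links equal numbers across storage times was not tested. With 1 library left out, the counts ran from 0 to 5 at 4 h and from 0 to 2 at 8 h in the LV, and from 4 to 9 at 4 h in the RV, staying at 9 at 8 h.

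Between ventricles, the hearts as a replicate block called 2 members higher in the LV at 0 h, 1 lower at 4 h, 9 lower at 8 h, 9 for the change to 8 h and 1 (Jun) for the change from 4 h to 8 h, where the unblocked fit called none, and DESeq2 called 1 lower at 8 h. With 1 library left out of the unblocked fit, 0 to 5 were lower at 8 h. With the block and 1 heart left out, members lower in the LV ran from 0 to 1 at 4 h, from 7 to 9 at 8 h, from 0 to 4 for the change to 4 h, from 8 to 9 for the change to 8 h, and from 0 to 9 for the change from 4 h to 8 h, the last being 9 without 8 h replicate 3 of both ventricles. Members higher in the LV ran from 0 to 2 at 0 h and from 0 to 1 at 4 h. The block changed no other count of member calls.

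Of the listed genes, DESeq2 called 29 higher at 4 h and 4 lower at 8 h in the LV (17 and 2 in the fit described). With a fold over 2, 1 was lower at 8 h in the LV, and 1 at 4 h and 0 at 8 h in the RV (2 in each). Length offsets gave 1 lower at 4 h in the RV. With 1 library left out, listed genes called higher ran from 1 to 27 at 4 h and 6 to 21 at 8 h in the LV, and from 16 to 42 and 35 to 48 in the RV. Those called lower ran from 0 to 3 at 8 h in the LV, and from 0 to 2 at 4 h and 0 to 4 at 8 h in the RV. The causes were not tested. With 3 libraries a group, changes below the spread between hearts could not be shown.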

Other observations

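Ddx3y, a gene of the Y chromosome, was at 0.442 to 0.787 TPM in both ventricles of 0 h replicate 2, 4 h replicate 3 and 8 h replicate 3, and at 16.9 to 30.2 TPM in the other 12 libraries. The LV library of 8 h replicate 3, in which all 9 members were the highest of their group, was thus among the libraries low in this gene. LV 4 h replicate 3 held the highest level of the group for 5 of 9 members, and LV 0 h replicate 2 for 0 of 9. In the RV of the same hearts, 8 h replicate 3 held the highest level for 8 of 9 members, 4 h replicate 3 for 1 and 0 h replicate 2 for 0. With 1 such heart per storage time, its part in the spread of the members was not tested.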
